A study of Arabidopsis thaliana with 7 samples.

Results

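The E2FC-GFP peaks of replicate 1 were set against the RBR-GFP peaks of replicate 1, and a peak was called shared where it overlapped a peak of the other list by at least 1 bp. The members were the 24883 E2FC peaks and the 27090 RBR peaks on the nuclear chromosomes, 51973 of the 106100 peaks in the replicate 1 lists of the 4 tagged proteins. Chromatin of whole seedlings of Arabidopsis thaliana, cultivar Col0, was precipitated with an antibody against GFP (ab290) and sequenced. The E2FC seedlings carried pE2FC-E2FC-GFP and the RBR seedlings pRBR-RBR-GFP, each a transgene that expresses the fusion protein from its own promoter, and neither received a treatment. By the labels all seedlings were 12 days old, whereas the methods of the study state another age. E2FC had 1 library and RBR had 2, and none of the 7 libraries came from input DNA or from seedlings without a GFP fusion. With 1 library of each protein in the comparison, no difference between E2FC and RBR could be set against the spread between replicates, and all values are descriptions. Intervals on shares are 95% Clopper-Pearson (exact binomial) bounds and cover counting error only. The study lists more uniquely mapped reads for RBR than for E2FC, and the part of depth in the sizes and widths of the lists was not tested.

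E2F transcription factors form dimers with DP proteins and bind a short GC-rich element in the promoters of genes for DNA replication and cell division. RETINOBLASTOMA-RELATED (RBR) does not bind DNA in a sequence-specific way itself but is held on chromatin by E2F proteins, where it represses their target genes until it is phosphorylated by cyclin-dependent kinases. Among the canonical E2Fs of Arabidopsis, E2FC has been described as a repressor and E2FA and E2FB as activators, and E2FC and RBR are both found in DREAM complexes together with MYB3R proteins.

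Regions from each class are shown as examples and do not stand for the frequency of matches in a class. The first 3 come from shared sites that stood near the top of both lists. Among the 5 pairs highest in both lists, they are those with 3 matches to the E2F consensus in each peak. Their windows were placed around matches, not around peak midpoints. A match within 100 bp of the midpoint was found in 3.87% of all shared E2FC peaks. These 3 regions were read from the RefSeq genome sequence and trimmed to the bases outside untranslated regions. Capitals mark the E2F consensus, which is TT, then 2 bases that are each C or G, then CG, then 2 bases that are each C or G, searched on both strands. The region of FAS1 is chr1:24324092-24324286, that of MCM5 is chr2:3527501-3527606 and that of AT3G23740 is chr3:8554840-8554951, all in TAIR10 and read on the minus strand, which is the coding strand of these genes. In FAS1 the second run of capitals holds 2 overlapping matches, one on each strand.
FAS1: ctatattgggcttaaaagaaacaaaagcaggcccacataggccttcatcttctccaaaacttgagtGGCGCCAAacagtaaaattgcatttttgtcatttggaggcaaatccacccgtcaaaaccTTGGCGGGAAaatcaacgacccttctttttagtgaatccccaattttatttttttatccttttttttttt
MCM5: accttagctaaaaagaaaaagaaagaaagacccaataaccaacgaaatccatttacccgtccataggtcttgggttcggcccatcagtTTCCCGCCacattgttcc
AT3G23740: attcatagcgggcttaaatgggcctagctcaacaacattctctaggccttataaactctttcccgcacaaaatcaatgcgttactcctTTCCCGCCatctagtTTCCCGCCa

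The central 200 bp of the E2FC-only peak with the highest fold enrichment, chr2:4972629-4972828 on the minus strand, lie upstream of the pseudogene AT2G12340 and hold no consensus match and 14.0% G and C. The central 200 bp of the RBR-only peak with the highest fold enrichment, chr5:21075947-21076146 on the plus strand, hold no match either and 33.0% G and C. These 2 regions were picked by fold enrichment, not by base composition. They differ in the same direction as the class medians, 22.5% for E2FC-only and 34.5% for RBR-only peaks. The E2FC-only region is an extreme of its class, below the 5th percentile of 16.5%.
AT2G12340: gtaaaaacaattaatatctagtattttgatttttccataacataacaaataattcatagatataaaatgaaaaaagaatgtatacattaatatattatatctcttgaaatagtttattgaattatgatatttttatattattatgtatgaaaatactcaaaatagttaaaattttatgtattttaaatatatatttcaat
AT5G51845: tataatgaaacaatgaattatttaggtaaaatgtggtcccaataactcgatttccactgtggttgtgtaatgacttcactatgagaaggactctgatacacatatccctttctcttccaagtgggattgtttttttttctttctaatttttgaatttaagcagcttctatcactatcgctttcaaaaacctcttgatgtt

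Of the E2FC peaks, 18674 overlapped an RBR peak, a share of 75.05% (74.5 to 75.58%), and 6209 did not. Of the RBR peaks, 16881 overlapped an E2FC peak, a share of 62.31% (61.73 to 62.89%), and 10209 did not. On the 5 chromosomes the shared part ranged between 70.9 and 76.8% of the E2FC peaks and between 61.2 and 64.4% of the RBR peaks. Shared E2FC peaks covered 12.45 Mb and E2FC-only peaks 2.371 Mb, while shared RBR peaks covered 17.25 Mb and RBR-only peaks 4.552 Mb. Few peaks sat at the limit of the rule. An overlap under 50 bp was found for 200 E2FC and 195 RBR peaks, and a gap under 50 bp for 129 E2FC and 128 RBR peaks. The median rank percentile of these E2FC peaks was 21.9 just inside and 24.2 just outside the rule, and that of the RBR peaks was 25.8 just inside and 32.1 just outside.

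The unshared peaks of both lists were narrower and lower in rank than the shared ones. Fold enrichment, the mean over a peak of its signal divided by the local background that the peak caller estimated, was ranked within each list only, and a percentile of 100 marks the top of the list. The median percentile was 52.6 for shared E2FC and 43.3 for E2FC-only peaks, and 60.0 for shared RBR and 34.6 for RBR-only peaks. The median width was 501 bp for shared E2FC and 297 bp for E2FC-only peaks, and 681 bp for shared RBR and 351 bp for RBR-only peaks. A wider peak has more bases that can meet a peak of the other list, so width and sharing are not independent. In the lowest decile of fold enrichment 71.1% of the E2FC and 36.5% of the RBR peaks were shared, and in the highest decile 89.1% of the E2FC and 90% of the RBR peaks were. The E2FC list was nearly flat over its lower 6 deciles, between 70.6 and 72.3%, whereas the RBR list climbed at every step.

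**Figure D1:**
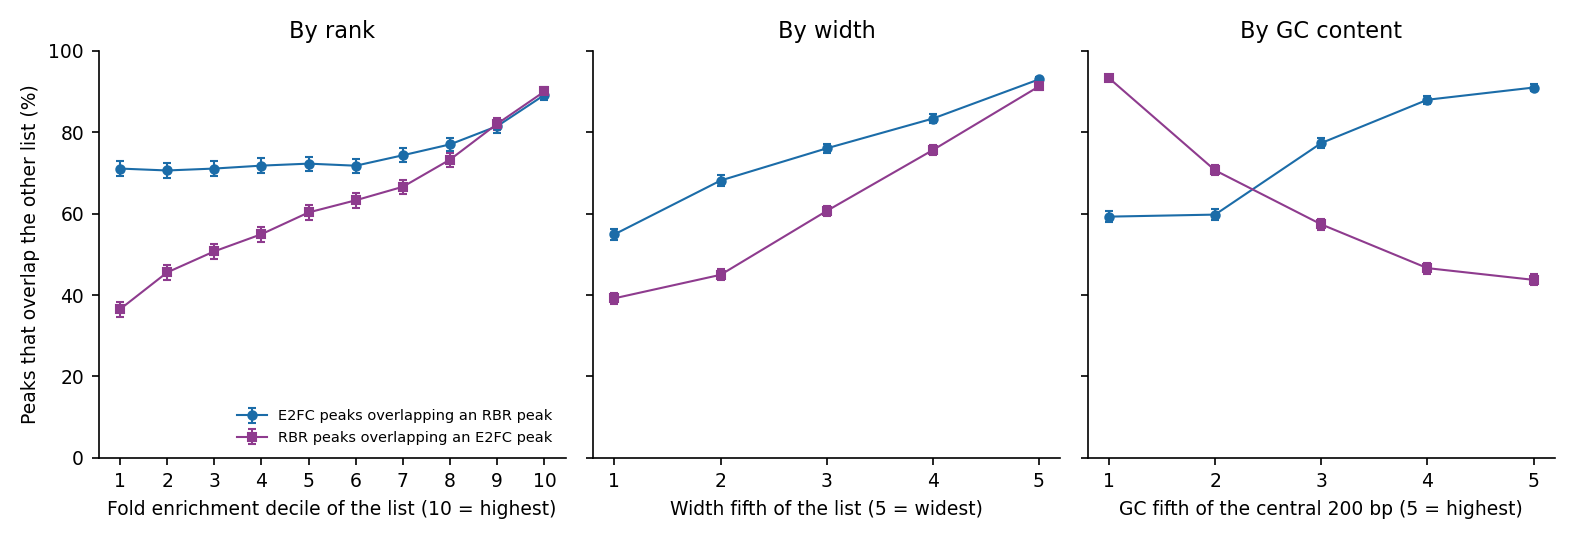
Share of peaks that overlap the other list (%, vertical axis), for E2FC peaks (circles) and RBR peaks (squares), by decile of fold enrichment and by bins of width and of GC content of the central 200 bp that each hold 20% of the list; bars are exact 95% intervals. The shares of both lists are highest at the top ranks and the widest peaks, and with GC content that of E2FC climbs to 91.0% while that of RBR drops to 43.7%.

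The shared part also differed with width. In the narrowest 20% of each list 54.9% of the E2FC and 39.2% of the RBR peaks were shared, against 93.0% of the E2FC and 91.2% of the RBR peaks in the widest 20%. Among peaks of 300 to 500 bp, the shared part of the E2FC peaks was 70.4% in the lowest and 81.8% in the highest 20% by rank. In the same width range the shared part of the RBR peaks lay between 45.9 and 49.9% in the 4 lower bins of rank and was 63.2% in the highest. Width and fold enrichment were themselves related, with a Spearman rho of 0.34 over the E2FC and 0.59 over the RBR peaks, computed across peaks of 1 library that share its depth.

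Base composition separated the classes in opposite directions. The median GC content of the central 200 bp was 28.0% in shared E2FC and 22.5% in E2FC-only peaks, against 29.5% in shared RBR and 34.5% in RBR-only peaks. In the 20% of lowest GC content 59.2% of the E2FC and 93.3% of the RBR peaks were shared. In the 20% of highest GC content 91.0% of the E2FC and 43.7% of the RBR peaks were. The classes overlapped in GC content, since more than 50% of the E2FC peaks in the AT-rich bin were still shared. Sonication, amplification and mapping can each depend on base composition, and their part in these shares was not tested.

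Unshared peaks of E2FC and of RBR differed from shared ones in position, and in different ways. The midpoint was within 1000 bp upstream of the nearest transcription start site (TSS) in 52.1% of shared E2FC, 38.7% of E2FC-only, 49.8% of shared RBR and 44.6% of RBR-only peaks. It was within 200 bp of a TSS on either side in 27.1% of shared E2FC and 8.38% of E2FC-only peaks, and in 30.3% of shared RBR and 47.0% of RBR-only peaks. The median distance to the TSS, negative upstream, was -228 bp for shared E2FC and -351 bp for E2FC-only peaks, and -180 bp for shared RBR and -26 bp for RBR-only peaks. A midpoint more than 1000 bp from any TSS was found in 34.3% of shared E2FC, 49.3% of E2FC-only, 33.4% of shared RBR and 27.8% of RBR-only peaks. The most frequent 100 bp step was the last before the TSS for shared E2FC (9.65%), shared RBR (11.5%) and RBR-only peaks (19.2%), and for E2FC-only peaks it was the step that begins 300 bp upstream (6.26%).

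**Figure D2:**
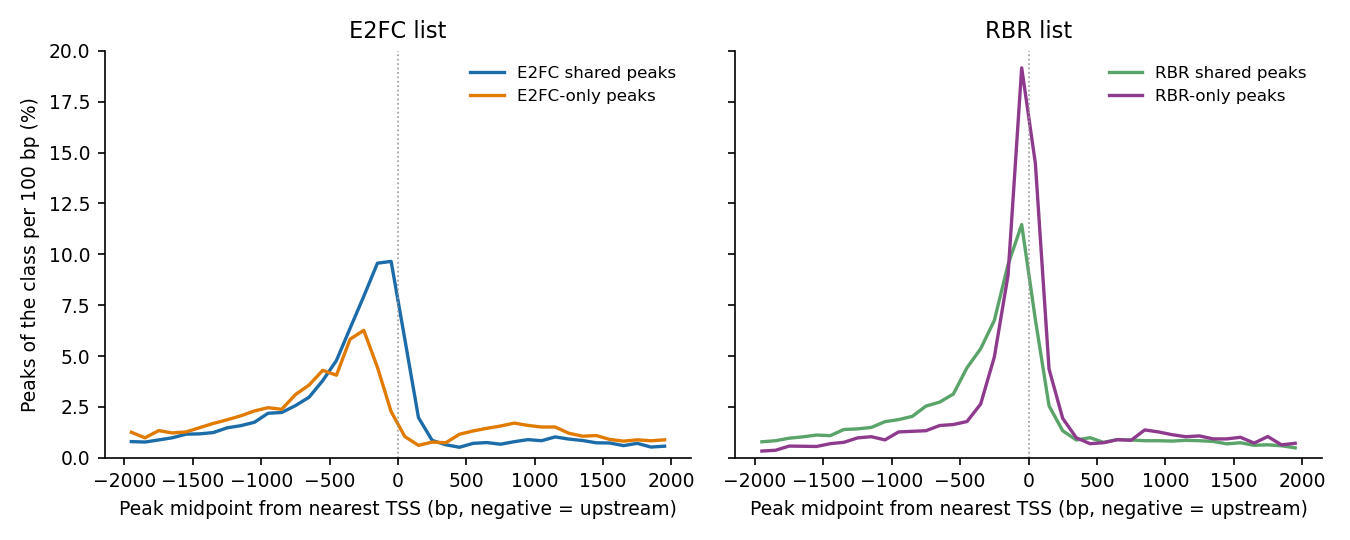
Peak midpoints by distance to the nearest TSS (bp, negative upstream) as the share of each class in steps of 100 bp (%, vertical axis), for the E2FC list (left) and the RBR list (right). RBR-only peaks crowd at the TSS, with 19.2% in the last 100 bp before it, and E2FC-only peaks are spread further upstream, with 6.26% in their highest step.

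The annotation under the midpoints showed the same split. The 5' untranslated region (UTR) held 7.89% of shared E2FC and 1.11% of E2FC-only midpoints, against 9.32% of shared RBR and 19.0% of RBR-only midpoints. The 3' UTR held 4.19% of shared E2FC and 2.32% of E2FC-only midpoints, against 4.11% of shared RBR and 13.3% of RBR-only midpoints. Intergenic sequence further than 1000 bp from any gene end held 17.9% of shared E2FC and 27.4% of E2FC-only midpoints, against 17.5% of shared RBR and 6.75% of RBR-only midpoints. Read the other way, 95.5% of the 1542 E2FC peaks centred in a 5' UTR were shared with RBR, and 44.8% of the 3508 RBR peaks centred there were shared with E2FC. In 3' UTRs 84.5% of 926 E2FC peaks and 33.8% of 2051 RBR peaks were shared. The 5' UTR peaks were narrower than the lists as a whole, with a median of 313 bp for E2FC and 389 bp for RBR, against 436 bp for all E2FC and 508 bp for all RBR peaks.

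**Figure D3:**
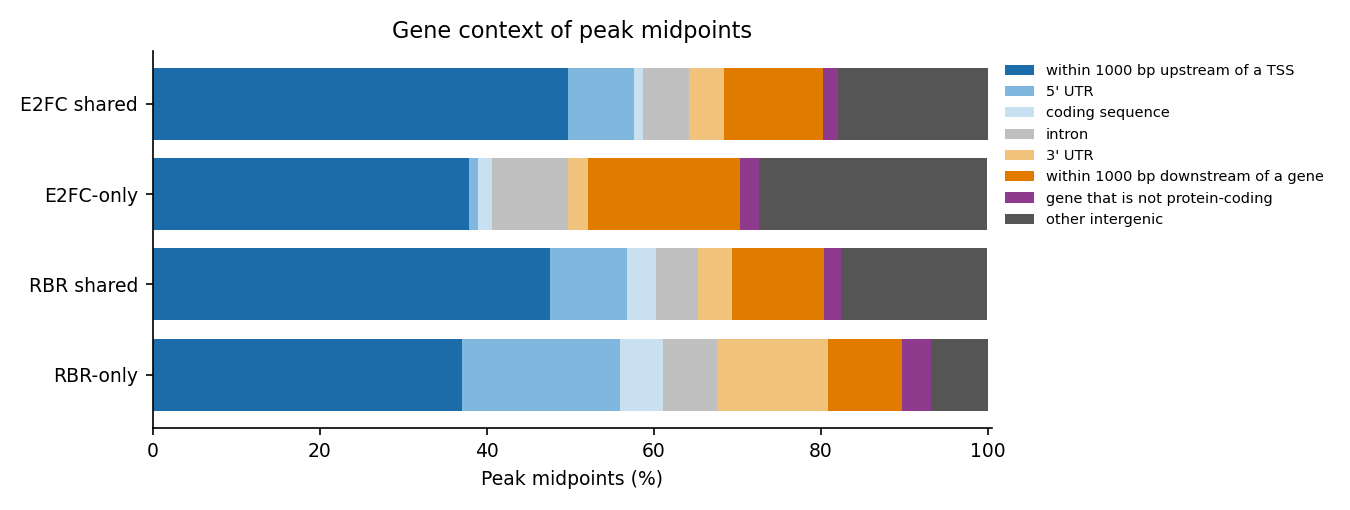
Annotation at the peak midpoint (% of the midpoints of each class, horizontal axis) for shared E2FC, E2FC-only, shared RBR and RBR-only peaks. E2FC-only peaks have the largest intergenic part (27.4%) and RBR-only peaks the largest 5' UTR (19.0%) and 3' UTR (13.3%) parts.

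E2FC-only peaks lay near pseudogenes more often than the other classes. The nearest TSS was that of a pseudogene for 3.72% of shared E2FC and 19.6% of E2FC-only peaks, against 4.11% of shared RBR and 2.45% of RBR-only peaks. Of all 37899 annotated genes 4843 were pseudogenes. E2FC-only peaks lay above this part of the genes, and the other classes lay below it. Of the 121 bins of 1 Mb, 18 held at least as many pseudogenes as protein-coding genes, and these bins contained 4.01% of shared E2FC and 22.7% of E2FC-only peaks, against 4.55% of shared RBR and 2.03% of RBR-only peaks. Outside these bins, an alternative added after the data had been seen, 78.9% of the E2FC and 61.7% of the RBR peaks were shared. Reads from repeated sequence map less surely than others, and the part of mapping in these peaks was not tested.

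The 5 E2FC-only peaks with the highest fold enrichment had values between 2.79 and 2.92 and stood between rank 93 and rank 164 of the list, so 92 shared peaks stood above them. The nearest TSS belonged to a pseudogene for 4 of them, AT2G12340, AT4G08053, AT4G05583 and AT3G42450, and to AT5G34869, a protein-coding gene without an assigned function, for the remaining peak. The nearest RBR peak was between 2697 and 63949 bp away. None of the 5 was covered by the RBR replicate 2 list, and none contained an E2F consensus match. All 5 overlapped an E2FA peak and 4 an E2FB peak.

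The 5 RBR-only peaks with the highest fold enrichment had values between 2.70 and 2.85, ranks between 44 and 157 of the list and an E2FC peak 196 to 1448 bp away. Their midpoints lay at -1001 bp from the TSS of the defensin-like gene AT5G51845, at -1305 bp from that of the long noncoding RNA gene AT5G01655, at -422 bp from that of AT1G05410, at -1926 bp from that of PGSIP8 in coding sequence, and at -1134 bp from that of AT2G32580 in a 3' UTR. All 5 overlapped peaks of RBR replicate 2, E2FA and E2FB. The single consensus match was in the peak at AT1G05410. An E2FC peak within 200 bp was found for 4.91% of all RBR-only peaks, and an RBR peak within 200 bp for 7.63% of all E2FC-only peaks. More than 1000 bp lay between an E2FC-only peak and the nearest RBR peak in 61.1% of cases, and between an RBR-only peak and the nearest E2FC peak in 69.0%.

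The peak lists of the other libraries, which the classes did not use, covered the classes unequally. RBR replicate 2 overlapped 79.1% of shared E2FC and 6.75% of E2FC-only peaks, and 79.2% of shared RBR and 83.6% of RBR-only peaks. Most E2FC-only sites thus had no called peak in the other RBR library either, and RBR-only sites were found again at about the share of shared ones. This list is in narrow peak format with its own settings, so replicate and peak format cannot be told apart. E2FA overlapped 99.6% of shared E2FC and 80.2% of E2FC-only peaks, and 99.5% of shared RBR and 67.3% of RBR-only peaks. E2FB overlapped 95.8% of shared E2FC and 28.5% of E2FC-only peaks, and 95.9% of shared RBR and 64.3% of RBR-only peaks. A peak of E2FA or E2FB was present at 78.5% of the RBR-only peaks. Whether the replicate 1 libraries were prepared or sequenced together is not given in the sources used here.

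Where both proteins had a peak, that of RBR was usually the wider and reached further into the gene. The overlaps formed 19484 pairs, of which 16157 joined 2 peaks that were each other's best partner by shared bases. In these the RBR peak was wider in 66.6%, the E2FC peak lay wholly inside the RBR peak in 43.8%, and the RBR peak lay wholly inside the E2FC peak in 17.4%. The median pair shared 383 bp, which was 94.5% of the E2FC and 63.1% of the RBR peak, and the midpoints were a median of 132 bp apart. Some peaks met several of the other list: 765 E2FC peaks met more than 1 RBR peak and 1953 RBR peaks met more than 1 E2FC peak, up to 7 in 1 RBR peak.

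In 9552 pairs both midpoints were within 1000 bp of the same TSS. The median midpoint was at -195 bp for E2FC and -146 bp for RBR. Taken pair by pair, the RBR midpoint was a median of 23 bp further along the direction of transcription, with the middle 50% of pairs between -66 and 135 bp, and it lay downstream of the E2FC midpoint in 57.2% and upstream in 42.7%. The RBR peak reached a median of 43 bp past the upstream edge and 103 bp past the downstream edge of the E2FC peak. The offset was small beside its spread, and midpoints of broad peaks are not summits.

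The ranks of the paired peaks were almost unrelated. Over the 16157 pairs, the Spearman rho between the E2FC and the RBR percentile was 0.02 and the Pearson r was 0.02, while the widths had a Spearman rho of 0.41, across pairs that share the same 2 libraries. The median RBR percentile of a pair lay between 53.4 and 65.4 in every decile of E2FC. The most populated cell of the plot of paired ranks was the top decile of both, with 334 pairs. The top decile also held the most pairs in each list, 2107 for E2FC and 2401 for RBR. The 334 pairs were not set against the count that these totals alone would give. In the top 1% of both lists there were 11 pairs. Rank followed base composition in the E2FC list only. From the lowest to the highest decile of fold enrichment, the median GC content of E2FC peaks fell from 29.0 to 22.0%. That of RBR peaks was 32.0% in the lowest and 32.5% in the highest decile. The part of base composition in the unrelated ranks was not tested.

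**Figure D4:**
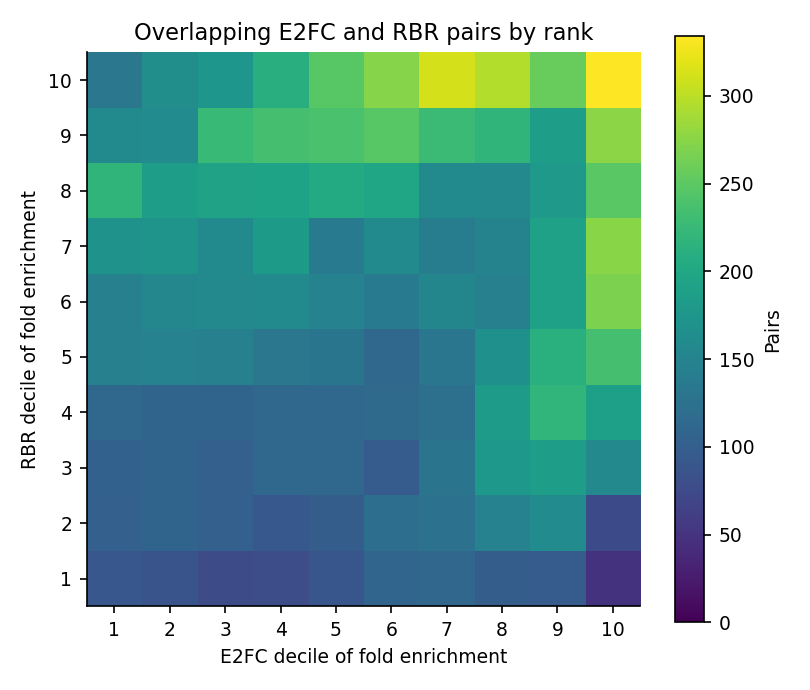
Number of overlapping E2FC and RBR pairs (colour) by decile of fold enrichment in the E2FC list (horizontal) and in the RBR list (vertical). Pairs fill all combinations of ranks. The highest count, 334, is where both are in the top decile, which is also the decile with the most pairs in each list. The lowest, 49, is where E2FC is in the top and RBR in the bottom decile.

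Pairs that were high in both lists held an E2F consensus more often than all pairs did, although most of them had none. A match within 100 bp of the E2FC midpoint was found in 61 of the 334 pairs in the top 10% of both lists, or 18.3%, against 4.07% of all pairs. It was found in 3.54% of the 706 pairs in the top 10% for E2FC and the bottom 50% for RBR, and in 0.645% of the 930 pairs in the top 10% for RBR and the bottom 50% for E2FC. Of the pairs high in both, 50% had the E2FC midpoint within 200 bp of a TSS, against 13.3% of those high for E2FC and low for RBR and 26.8% of those high for RBR and low for E2FC. The median RBR width was 764 bp in pairs high in both, 400 bp in pairs high for E2FC and 1004 bp in pairs high for RBR.

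The 5 pairs that stood highest in both lists included genes of DNA replication and chromatin. FAS1, the large subunit of chromatin assembly factor 1, had the top E2FC peak, chr1:24323869-24324461, with a fold enrichment of 3.92. Its RBR peak, chr1:24323922-24324402, had rank 49 with 2.83, and the midpoints lay at -74 bp for E2FC and -71 bp for RBR from the TSS. Both peaks hold the 3 consensus matches shown above. MCM5, a subunit of the replicative helicase, had rank 9 for E2FC (3.52) and rank 82 for RBR (2.77), with 3 matches in each peak, of which 1 lies in the region printed.

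ATX1, a trithorax-type histone methyltransferase gene, had rank 6 for E2FC (3.61) and rank 106 for RBR (2.74) with 1 match. AT3G23740, which encodes an uncharacterized protein, had rank 12 for E2FC (3.396) and rank 109 for RBR (2.741) with 3 matches in each peak, of which 2 lie in the region printed. AT1G16520, annotated as an interactor of constitutive active ROPs, had rank 31 for E2FC (3.15) and rank 51 for RBR (2.83) and was the only one of the 5 without a match. All 5 also overlapped peaks of RBR replicate 2, E2FA and E2FB.

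The pairs with the most unequal ranks were of different kinds. Of the 5 ranked highest for E2FC over RBR, 3 were nearest to the pseudogenes AT3G42240, AT5G28712 and AT4G03700, 1 to the noncoding RNA gene AT2G05685 and 1 to DAD2, a gene of the DAD family. Their E2FC percentiles lay between 93.2 and 98.1 and their RBR percentiles between 0.203 and 4.89, and only the pair at DAD2 was also covered by RBR replicate 2. The E2FC peak at AT3G42240 contained 4 consensus matches and its RBR peak none.

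Of the 5 ranked highest for RBR over E2FC, all were nearest to protein-coding genes and all were covered by RBR replicate 2. They were AT5G39790 (PTST), which acts in starch synthesis, ISA1, an isoamylase, ABCC14, an ABC transporter gene, PRORP2, an RNase P, and AT2G41550. Their E2FC percentiles lay between 0.291 and 1.78 and their RBR percentiles between 97.3 and 98.9. None of the 10 peaks contained a consensus match.

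Genes were called by a peak that reached within 500 bp of the TSS, whether or not the E2FC and the RBR peak overlapped each other. Of the 27444 protein-coding genes, 11553 (42.1%) had both proteins, 1751 (6.38%) E2FC only, 7285 (26.5%) RBR only and 6855 neither. Lists of cell cycle genes were read against these shares. Of 106 listed cell cycle genes, 96 had both, 7 RBR only, 3 neither and 0 E2FC only. The 96 include the E2FC and the RBR gene, where reads from the transgene cannot be told apart. For genes with both proteins the median percentile of the best peak was 93.4 for E2FC and 76.4 for RBR in these lists, against 55.3 for E2FC and 67.4 for RBR over all protein-coding genes. The E2FC percentile was the higher in 77 of the 96 genes (80.2%), and in 41.4% of all protein-coding genes with both proteins.

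**Figure D5:**
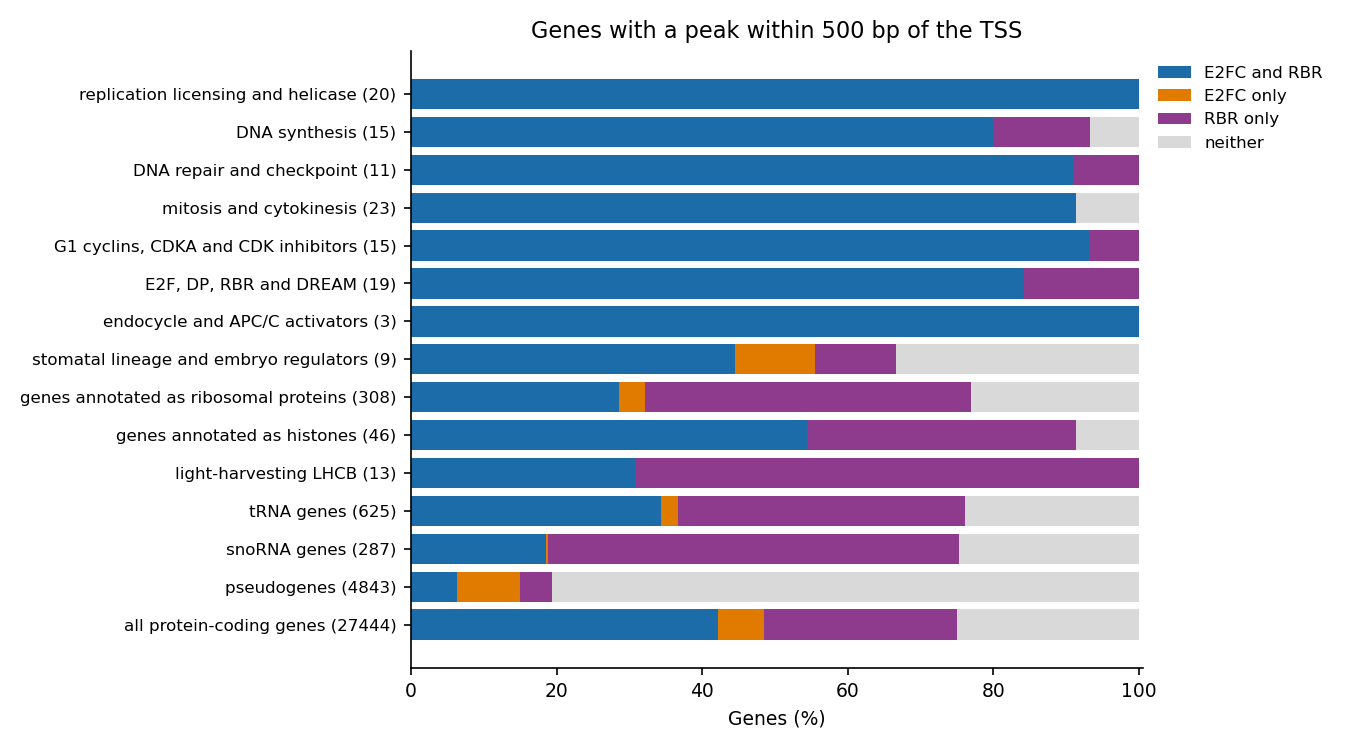
Genes with a peak within 500 bp of the TSS for E2FC and RBR, E2FC only, RBR only or neither (% of the genes in each list, horizontal axis; number of genes in brackets). All 20 licensing and helicase genes carry both proteins, RBR-only genes are most frequent among LHCB and snoRNA genes, and all protein-coding genes stand in the bottom bar with 42.1% for both. Neighbouring genes can be called by the same peak.

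All 20 genes of replication licensing and the replicative helicase had both proteins, with a median percentile of 98.5 for E2FC and 84.7 for RBR. The highest smaller percentiles were those of MCM5, MCM2, MCM6 and CDC45, subunits of or partners to the helicase that unwinds DNA at the fork. MCM2 had a fold enrichment of 2.66 (percentile 98.9) for E2FC and 2.54 (98.3) for RBR, with midpoints at -98 bp for E2FC and -11 bp for RBR and 3 consensus matches in each peak. CDC45 had 2.85 (99.5) for E2FC and 2.45 (97.0) for RBR. MCM6 had 3.05 (99.8) for E2FC and 2.48 (97.4) for RBR, without a match. The lowest was ORC5, a subunit of the origin recognition complex, with percentiles of 8.07 for E2FC and 31.5 for RBR.

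Of 15 DNA synthesis genes 12 had both, and in all 12 the percentile was higher for E2FC. RNR1, the large subunit of ribonucleotide reductase, had a fold enrichment of 3.53 (percentile 99.97) for E2FC and 2.65 (99.2) for RBR, with midpoints 19 bp (E2FC) and 14 bp (RBR) downstream of the TSS and 3 matches. TSO2, a small subunit of the same enzyme, had percentiles of 99.4 for E2FC and 89.99 for RBR with 4 matches, and FAS2, the middle subunit of chromatin assembly factor 1, had 96.6 for E2FC and 93.3 for RBR. RNR2A, another small subunit, had an RBR peak only (percentile 89.6), as did POLE1A, a catalytic subunit of DNA polymerase epsilon (53.2). MSI1, the small subunit of chromatin assembly factor 1, had neither. RBR replicate 2 listed a peak there, at percentile 77.5 of its own list. The fold enrichment of that peak, 4.26, is to be read within that narrow peak list only.

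Of 11 repair and checkpoint genes 10 had both. BRCA1, which acts in homologous recombination, had percentiles of 99.97 for E2FC and 99.3 for RBR, with midpoints 41 bp (E2FC) and 17 bp (RBR) downstream of the TSS and no consensus match. WEE1, a kinase that restrains cyclin-dependent kinases, had 99.7 for E2FC and 97.1 for RBR. BRCA2B and BRCA2A, which load the recombinase, had 99.7 and 99.6 for E2FC and 93.0 and 92.8 for RBR. ATM, the kinase that signals double-strand breaks, had an RBR peak only (percentile 61.5).

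Of 23 genes of mitosis and cytokinesis 21 had both, with lower medians of 72.8 for E2FC and 53.5 for RBR. HINKEL, a kinesin of the phragmoplast, had percentiles of 94.1 for E2FC and 96.5 for RBR. The mitotic kinase genes CDKB2;2 and CDKB2;1 had 98.8 and 98.1 for E2FC and 88.8 and 76.0 for RBR, and the B-type cyclin gene CYCB2;2 had 93.0 for E2FC and 83.0 for RBR. None of these 4 contained a consensus match in either peak. CYCB1;1 and the Aurora kinase gene AUR2 had neither. RBR replicate 2 listed a peak at CYCB1;1 (3.50, percentile 62.0 of its own list) but none at AUR2.

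Of 15 genes of G1 cyclins, CDKA and CDK inhibitors 14 had both, and here the medians were 67.1 for E2FC and 72.0 for RBR. The D-type cyclin genes CYCD3;3, CYCD3;1 and CYCD3;2, which drive entry into the cycle, had 98.6, 94.0 and 69.7 for E2FC and 98.9, 95.7 and 86.2 for RBR. At CYCD3;1 the E2FC midpoint was 34 bp downstream and the RBR midpoint, of a peak 3830 bp wide, at -1359 bp from the TSS. KRP2, an inhibitor of cyclin-dependent kinases, had 90.8 for E2FC and 75.6 for RBR, and SMR1, another inhibitor, an RBR peak only (72.9). The APC/C activator genes CCS52A2, CCS52A1 and CCS52B had both. Their percentiles were 89.4, 69.6 and 68.5 for E2FC and 75.4, 79.2 and 67.7 for RBR.

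Of 19 genes for E2F, DP, RBR and DREAM components 16 had both. The 16 include the E2FC and the RBR gene, each of which its own line carries as a transgene. E2FA had percentiles of 99.6 for E2FC and 91.5 for RBR, E2FB had 88.5 for E2FC and 33.5 for RBR, and DEL3, an atypical E2F, had 99.4 for E2FC and 78.2 for RBR. The dimer partners differed. DPA had percentiles of 94.0 for E2FC and 93.3 for RBR, whereas DPB had no E2FC peak and an RBR peak of 160 bp at percentile 7.69 that RBR replicate 2 did not list. The repressor gene MYB3R3 and TSO1, which encodes a CXC domain protein, had RBR peaks only (45.0 and 6.96).

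The genes of the 2 tagged proteins stood apart in the width of the peaks. At the E2FC gene, AT1G47870, the E2FC peak was 7246 bp wide, chr1:17630297-17637542, the 4th widest of the list, and covered 91.4% of the gene, while the RBR peak there was 423 bp wide. At the RBR gene, AT3G12280, the E2FC peak was 702 bp wide and had rank 14 by fold enrichment (3.31), while the RBR peak was 5941 bp wide, chr3:3913696-3919636, rank 136 by width, and covered 94.2% of the gene. Each line carries its own tagged gene as a transgene, and the part of reads from the transgene was not tested. In these peak lists, reads from the transgene and from the native gene cannot be told apart. The fold enrichment of each wide peak can thus not be ascribed to the native gene alone. The narrow peaks, RBR at the E2FC gene with a midpoint 21 bp downstream of the TSS and E2FC at the RBR gene with 170 bp and 3 consensus matches, came from the lines without a transgene of that gene.

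Of 9 regulators of the stomatal lineage and the embryo 4 had both, near the 42.1% of all protein-coding genes. TMM, a receptor of stomatal patterning, had percentiles of 86.8 for E2FC and 83.5 for RBR, and EPF2, a peptide ligand of the same pathway, 79.8 for E2FC and 97.9 for RBR. SPCH, which starts the lineage, had 29.9 for E2FC and 73.1 for RBR, and LEC1, a regulator of embryo maturation, 76.8 for E2FC and 3.64 for RBR. MUTE had an RBR peak only, LEC2 an E2FC peak only, and FAMA, FUS3 and ABI3 neither. RBR replicate 2 listed no peak at MUTE or at LEC1.

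Gene families outside these lists were read against the same shares of all protein-coding genes, 42.1% with both and 26.5% with RBR only. Of 46 genes annotated as histones 25 had both (54.3%), 17 RBR only (37.0%) and 0 E2FC only, and all 17 were listed in RBR replicate 2. Where histone genes had both proteins, the E2FC percentile was the higher in 24 of 25. Of 308 genes annotated as ribosomal proteins 88 had both (28.6%), 11 E2FC only and 138 RBR only (44.8%), and 136 of the 138 were listed in RBR replicate 2. Of 13 genes for light-harvesting proteins of photosystem II 4 had both (LHCB6, LHCB2.1, LHCB4.3 and LHCB3), 9 RBR only and 0 E2FC only. CAB1, CAB2 and CAB3, which lie next to each other and are nearly identical, are among the 9, and reads could be split between them.

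Genes of noncoding RNAs and pseudogenes were read against all 37899 annotated genes, of which 35.9% had both, 6.77% E2FC only and 23.6% RBR only. Of 625 tRNA genes 215 had both, 14 E2FC only and 247 RBR only (39.5%). Of 287 snoRNA genes 53 had both, 1 E2FC only and 162 RBR only (56.4%). Among 326 microRNA genes 79 had both, 24 E2FC only (7.36%) and 81 RBR only (24.8%), and among 3480 long noncoding RNA genes 1113 had both, 288 E2FC only (8.28%) and 752 RBR only (21.6%), so that the RBR-only shares of both lay near that of all genes. Of 4843 pseudogenes 308 had both, 414 E2FC only (8.55%) and 215 RBR only (4.44%). RBR replicate 2 listed a peak at 17 of the 414 pseudogenes with E2FC only and at 182 of the 215 with RBR only.

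The E2F consensus was most frequent in shared peaks and remained rare in all classes. It was found within 100 bp of the midpoint in 3.87% of shared E2FC (3.59 to 4.15%) and 2.13% of E2FC-only peaks (1.78 to 2.52%), and in 3.53% of shared RBR (3.26 to 3.82%) and 1.47% of RBR-only peaks (1.25 to 1.72%). At 600 bp on either side of the midpoint, equally wide windows gave 1.94% for shared E2FC, 2.19% for E2FC-only, 2.01% for shared RBR and 1.895% for RBR-only peaks. The 200 bp before the TSS of all protein-coding genes held it in 2.31%. The share at the midpoint exceeded that of the flanks in shared peaks and was near or below it in unshared ones. The low GC content of E2FC-only midpoints leaves fewer chances for a match, and its part in the difference was not tested.

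Other promoter elements, searched on both strands in the same windows, were most frequent in RBR-only peaks, though not all exceeded their share in promoters. The site II element TGGGCC, which is common in ribosomal protein promoters, was found in 5.80% of shared E2FC and 0.982% of E2FC-only peaks, and in 7.36% of shared RBR and 14.1% of RBR-only peaks, against 2.08% in the flanks of RBR-only peaks and 12.6% of all protein-coding promoters. The telobox AAACCCTA was found in 1.74% of shared E2FC and 1.39% of E2FC-only peaks, and in 1.94% of shared RBR and 3.84% of RBR-only peaks, near the 3.72% of promoters. The G-box CACGTG was found in 5.09% of shared E2FC and 0.902% of E2FC-only peaks, and in 6.01% of shared RBR and 7.96% of RBR-only peaks, against 5.64% of promoters. The core AACGG of the MSA element, bound by MYB3R proteins, was found in 13.9% of shared E2FC and 8.57% of E2FC-only peaks, and in 15.2% of shared RBR and 18.1% of RBR-only peaks, against 17.4% of promoters. The repeat GAGAGAGA was found in 3.25% of shared E2FC and 0.821% of E2FC-only peaks, and in 4.21% of shared RBR and 6.09% of RBR-only peaks, against 4.13% of promoters. For each of these elements RBR-only peaks had the highest and E2FC-only peaks the lowest share of the 4 classes, which is also the order of their GC content. The RBR-only shares of the telobox and the MSA core were near those of promoters, and those of site II, the G-box and the GAGA repeat were above them. In the flanks of RBR-only peaks, the telobox was found in 2.80%, the MSA core in 16.6%, the G-box in 1.88% and the GAGA repeat in 3.20%. For the MSA core the share at the midpoint was thus little above that of the flanks.

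An RBR-only promoter with site II in capitals is shown as an example, the one with the highest fold enrichment (2.37, percentile 95.2) among those with a midpoint within 200 bp upstream of a protein-coding TSS. It is that of NDA1, an alternative NAD(P)H dehydrogenase gene, AT1G07180, where the peak chr1:2203714-2204344 is centred at -75 bp from the TSS, and the region printed is chr1:2203930-2204103 on the plus strand.
NDA1: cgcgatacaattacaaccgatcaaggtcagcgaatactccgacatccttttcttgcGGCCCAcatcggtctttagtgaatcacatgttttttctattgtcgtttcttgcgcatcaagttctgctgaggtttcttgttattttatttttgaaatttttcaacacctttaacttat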

How the data were processed

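ChIP-seq libraries of E2FC-GFP, RBR-GFP, E2FA-GFP and E2FB-GFP (replicate 1) and RBR-GFP (replicate 2) were used as deposited peak lists, and reads were not analysed here. Per the labels, the authors used Trimmomatic 0.38, Bowtie2 2.3.5 on TAIR10, SAMtools 1.9 and MACS2 2.2.7.1. Peaks were called per library, and the labels name no control. In the deposited lists the authors give fold enrichment, a ratio of signal to the caller's estimate of local background, and the q-value as -log10, each as a mean over a broad peak. Both were ranked within a list only. Where E2FC and RBR percentiles are set side by side, ranks in 2 lists of unlike length and peak width are compared, not amounts of binding. The replicate 2 list is in narrow peak format and its peak names point to another caller version. The depth of the peaks in reads is not in these lists, so no interval on fold enrichment could be given.

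Peaks on the 5 nuclear chromosomes were classified by 1 bp overlap. Genes and TSS came from the RefSeq annotation of TAIR10 (37899 nuclear genes, 27444 protein-coding), whose coordinates equal those of the lists. Distances and motifs refer to peak midpoints, and motifs were searched in 200 bp. Python 3.11.15, numpy 2.4.6, pandas 2.3.3, scipy 1.17.1 and matplotlib 3.10.9 were used, and the procedures were tested on simulated data. No test between conditions was made, since each protein has 1 library in the comparison. Sites were named by rule, as the 5 pairs highest in both lists, the 5 unshared peaks a list that had the highest fold enrichment, the 5 pairs with the most unequal ranks in each direction, the genes of E2FC, RBR, DPA, DPB, E2FA and E2FB, list members without both proteins, and up to 4 members a list with the highest smaller percentile. ORC5, the histone, ribosomal protein, LHCB and RNA gene families and NDA1 were named after their values were seen. The classes and gene lists were chosen with earlier results of these data known. Alternatives varied the overlap, the thresholds, the windows, the ranking value and the RBR library. The replicate 2 lists of E2FA and E2FB and the organelle peaks were left out of the classes.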

Additional observations from a re-analysis of the deposited data

Results flagged for a closer look

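Outside the nuclear chromosomes, 96 peaks of the E2FC list lay on organelle genomes, 94 on the mitochondrial and 2 on the chloroplast genome, against 4 peaks of the RBR list, all on the mitochondrial genome. They were singled out because the classes did not use them. None of the 7 libraries lacks a GFP fusion, so there was none to set them against, and they entered no share or median given above.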

How the results depend on the processing

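The shared part depended on what counts as shared and on the thresholds. It was 71.4% of E2FC and 59.0% of RBR peaks with an overlap of at least 50% of the shorter peak, 77.0% of E2FC and 64.2% of RBR peaks within 200 bp, 41.3% of E2FC and 38.0% of RBR peaks with 200 bp around midpoints, and 72.3% of E2FC and 53.4% of RBR peaks at a q-value under 0.01. It was 27.4% of E2FC and 16.8% of RBR peaks at a fold enrichment of 2 or more, 40.1% of E2FC and 37.7% of RBR peaks among the 10000 highest of each list, and 61.0% of E2FC and 52.9% of RBR replicate 2 peaks with that library. Shares fall by construction when fewer peaks of the other list remain. With choices added after seeing the data, it was 78.9% of E2FC and 61.7% of RBR peaks outside bins rich in pseudogenes, and 73.8% of E2FC and 49.6% of RBR peaks of 300 to 500 bp.

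Differences are given as shared minus unshared peaks. The median percentile differed by 9.29 for E2FC and 25.4 for RBR, by 13.1 for E2FC and 22.0 for RBR when ranked by -log10 q, and by 6.99 for E2FC and 24.3 for RBR with peaks within 200 bp. The median width differed by 204 bp for E2FC and 330 bp for RBR, by 236 bp for E2FC and 318.5 bp for RBR at a q-value under 0.01, by 192 bp for E2FC and 314 bp for RBR with peaks within 200 bp, and by 280.5 bp for E2FC and 534 bp for RBR in the top 10% of each list, the last added after seeing the data. The share within 1000 bp upstream of a TSS differed by 13.4 points for E2FC and 5.18 points for RBR. For E2FC it was 19.5 points with protein-coding genes only and 11.3 points outside bins rich in pseudogenes. With a window of 500 bp it was 15.4 points for E2FC and turned round to -0.0202 points for RBR, and the cause was not tested. The interval of this RBR difference spans 0. It is approximate, joined from the exact intervals of the 2 shares, and covers counting error only. The share with an E2F consensus differed by 1.74 points for E2FC and 2.06 points for RBR, by 2.29 points for E2FC and 2.97 points for RBR with 200 bp to each side, and for RBR by 2.63 points at a q-value under 0.01. Gene counts by class stayed within 1.5 times under the alternatives run. Of 52 values under alternatives, 17 stayed close to the reported value, 34 moved in size and 1 turned round. Close meant within 1.5 times for gene counts and inside the interval of the reported value for all others. All gene counts are among the 17, by the looser rule.

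No paired analysis was possible because E2FC has 1 library. A peak in 1 list only means that none was called in the other, not that the protein was absent.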
